A study of Mus musculus with 6 samples.

Results

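The ligand and receptor genes of TGF-beta and activin signalling were compared between 3 mesenchymal cell populations of mouse skin. The 10 genes are Tgfb1, Tgfb2 and Tgfb3, which encode the TGF-beta ligands, Inhba and Inhbb, which encode the activin subunits, Tgfbr1, Tgfbr2 and Tgfbr3, which encode TGF-beta receptors, and Acvr1 and Acvr2a, which encode receptors of the activin class. They were taken by symbol, and each matched 1 of the 24529 genes of the deposited table. Cells were sorted by flow cytometry from the dorsal skin of CD1 females and their RNA was sequenced. The animals were at postnatal day 16, in early catagen, the stage at which the lower hair follicle regresses. The populations were dermal sheath (DS), a cup of contractile cells around the follicle, dermal papilla (DP), a cell cluster in the hair bulb that signals to the epithelium, and fibroblasts of the dermis (DF). Each had 2 biological replicates, so 6 libraries were compared, and the labels name no treatment or mutation. Which surface markers or reporters gated the sort, and how many animals a replicate holds, the labels do not give, so p-values measure the spread between these libraries. In sorted populations, a smaller share of cells that use a gene and less RNA per cell cannot be told apart.

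TGF-beta ligands are secreted in a latent complex, which binding proteins tether to the matrix and which integrins can open. The active ligand assembles the type II receptor Tgfbr2 with the type I kinase Tgfbr1, and Smad2 and Smad3 carry the signal to the nucleus with Smad4. Betaglycan, the product of Tgfbr3, is a co-receptor that presents ligand, TGF-beta2 above all, to Tgfbr2. Activin A is a dimer of the Inhba product and activin B of the Inhbb product. Activins bind the type II receptors Acvr2a and Acvr2b and signal mainly through the type I receptor Acvr1b, again to Smad2 and Smad3, while Acvr1 is best known as a type I receptor of BMPs. In skin, TGF-beta1 is known as a signal that promotes catagen, TGF-beta2 from the papilla as a signal to hair follicle stem cells at the start of growth, and activin as a regulator of follicle development and wound repair.

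Values are RPKM, read numbers scaled to transcript length and to the reads of the library, and differences were taken on the log2(RPKM + 1) scale, which understates the change of low genes. A gene was called higher or lower at an adjusted p under 0.05 in limma, a linear model that shares its estimate of the spread across genes, with a log2 difference of at least 1. Of the 24529 genes, 14664 had 1 RPKM or more in 2 or more libraries and entered the test. All 10 ligand and receptor genes passed this filter, and the lowest of their values in any library was 3.85 RPKM, so none passed only through the population in which it was high. Relative to DF replicate 2, sequencing depth was between 0.417 and 0.696 in the other libraries, lowest in DS. A single feature, Mir6236, held 60.1% and 56.7% of the summed RPKM in DS, 57.0% and 46.6% in DP, and 77.1% and 74.6% in DF. The log2 differences of all tested genes had medians of 0.53 (DS minus DF), 0.71 (DP minus DF) and -0.17 (DS minus DP). Dividing each library by its median-ratio factor brought these medians to 0.0031, 0.016 and 0.0040, and the part of Mir6236 in the shift was not tested. Values under that scaling are given beside the differences called in the 10 genes and for most other pathway genes named. Most marker genes went with the labels. All 7 dermal sheath markers, such as Acta2, were called higher in DS than in DP and in DF, and all 8 dermal papilla markers were called higher in DP than in DF. Corin, of the papilla markers, was higher in DS than in DP, and of 7 fibroblast markers 6 were lower in DS than in DF, with Pdgfra higher, and 5 were lower in DP than in DF, with Dpp4 higher.

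Both activin subunit genes were far higher in DP than in the other 2 populations. Inhba (gene ID 16323) had 44.2 and 32.2 RPKM in DS, 2119 and 2517 RPKM in DP, and 49.8 and 90.1 RPKM in DF. In the DP libraries it ranked 15 and 14 of all 24529 genes, against 2594 and 3625 in DS and 1337 and 765 in DF. Inhbb (gene ID 16324) stood lower, with 5.46 and 4.32 RPKM in DS, 91.2 and 74.5 RPKM in DP, and 3.85 and 6.65 RPKM in DF. For both genes the DP libraries lay above every other library by more than 10-fold, while the DS and DF libraries lay close to each other and, for Inhbb, overlapped. Between DP and DF the log2 difference was 5.08 for Inhba (SE 0.31, adjusted p = 0.000291) and 3.78 for Inhbb (SE 0.28, adjusted p = 0.000436), or 4.24 and 3.01 with median-ratio scaling. Between DS and DP it was -5.90 for Inhba (SE 0.31, adjusted p = 0.000159) and -3.83 for Inhbb (SE 0.28, adjusted p = 0.000412), or -5.68 and -3.60 with median-ratio scaling. DS and DF were not separated for either gene by the call rule, with a log2 difference of -0.81 for Inhba (95% interval -1.59 to -0.04, adjusted p = 0.0812) and -0.056 for Inhbb (95% interval -0.74 to 0.63, adjusted p = 0.883). Inhba became a called decrease in DS with median-ratio scaling (-1.44, adjusted p = 0.0104), with equal sums outside the 100 highest genes (-1.41, adjusted p = 0.0151) and without DF replicate 1 (-1.24, adjusted p = 0.0293), within adjusted p from 0.0104 to 0.277 over the alternatives.

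The promoters of the activin subunit genes, which moved together, are shown because their base composition differs. Each runs from 250 bases before to 50 bases after the annotated start and was taken from RefSeq on GRCm38.p6, an earlier build than the GRCm39 named in the submitters' processing notes. The Inhba window lies at chr13:16011601-16011900 on the plus strand and the Inhbb window at chr1:119422199-119422498 on the minus strand. Capitals mark 4 motifs, searched on both strands, namely TATAAA (the core of a TATA box), CTTTGT (a core of LEF and TCF sites), CAGAC (a Smad-binding box) and GGGCGG (an SP1 box).
Inhba promoter: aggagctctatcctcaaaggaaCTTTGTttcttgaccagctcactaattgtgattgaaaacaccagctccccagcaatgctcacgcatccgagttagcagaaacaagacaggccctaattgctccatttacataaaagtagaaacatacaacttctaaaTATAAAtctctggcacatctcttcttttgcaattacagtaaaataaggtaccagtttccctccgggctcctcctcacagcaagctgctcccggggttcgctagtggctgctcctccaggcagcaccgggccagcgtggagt
Inhbb promoter: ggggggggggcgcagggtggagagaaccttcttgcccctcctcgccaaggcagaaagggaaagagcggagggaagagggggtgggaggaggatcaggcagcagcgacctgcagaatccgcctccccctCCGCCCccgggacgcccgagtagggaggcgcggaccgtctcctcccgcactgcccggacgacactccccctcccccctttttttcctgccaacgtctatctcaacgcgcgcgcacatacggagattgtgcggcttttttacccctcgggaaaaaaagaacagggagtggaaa
The Inhba window holds 47.7% G and C, above 30.8% of the 32851 promoter windows in the table, and the Inhbb window 64.3%, above 80.4% of them. Inhba has 1 TATAAA, 91 bases before the start, and 1 CTTTGT, 228 bases before it, with neither of the other motifs. Inhbb has 1 GGGCGG, 122 bases before the start, and none of the others. Of all windows, 13.6% hold TATAAA, 18.7% CTTTGT, 49.6% CAGAC and 35.7% GGGCGG, and a match is a description of the letters in this window.

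Among the TGF-beta ligands, Tgfb1 was lowest in DF, while Tgfb2 was lowest in DS. Tgfb1 (gene ID 21803) had 19.9 and 33.2 RPKM in DS, 59.0 and 80.1 RPKM in DP, and 4.04 and 4.16 RPKM in DF. No library of one population overlapped another, and the replicates of DS and of DP were further apart than those of DF. Tgfb1 was higher in DS than in DF, at 2.39 on the log2 scale (SE 0.28, adjusted p = 0.00233) and higher in DP than in DF by 3.77 (SE 0.28, adjusted p = 0.000471), or 1.84 and 3.01 with median-ratio scaling. The step between DS and DP was less certain, at -1.38 (SE 0.28, adjusted p = 0.0165), or -1.17 with median-ratio scaling. That call ended with no filter on low values (adjusted p = 0.0700), without DS replicate 1 (0.0635, with a log2 difference of -1.03) and without DP replicate 2 (0.0873, with -1.17), within adjusted p from 0.0139 over the alternatives.

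Tgfb2 (gene ID 21808) had 12.7 and 14.2 RPKM in DS, 77.6 and 75.1 RPKM in DP, and 117 and 147 RPKM in DF. Again the populations did not overlap, and both DS libraries were well under the others. Tgfb2 was lower in DS than in DF, at -3.20 on the log2 scale (SE 0.16, adjusted p = 0.000168) and lower in DS than in DP, at -2.42 (SE 0.16, adjusted p = 0.000315), or -3.82 and -2.21 with median-ratio scaling. In DP minus DF the log2 difference was -0.78 (95% interval -1.17 to -0.38, adjusted p = 0.0102), under the minimum difference. With median-ratio scaling it was -1.62 (adjusted p = 0.000456) and with equal sums outside the 100 highest genes -1.43, both called. Tgfb3 (gene ID 21809), the ligand with the smallest range, had 16.3 and 13.4 RPKM in DS, 8.56 and 9.57 RPKM in DP, and 19.5 and 19.6 RPKM in DF. Tgfb3 was lower in DP than in DF, at -1.03 on the log2 scale (SE 0.17, adjusted p = 0.00542), or -1.83 with median-ratio scaling, and the call ended without DP replicate 1 (-0.96, adjusted p = 0.0331). Its DS minus DF difference of -0.38 (95% interval -0.82 to 0.05, adjusted p = 0.125) and its DS minus DP difference of 0.65 (95% interval 0.22 to 1.09, adjusted p = 0.0381) were not called.

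The promoters of Tgfb1 and Tgfb2, the ligand genes with opposite orders in DS and DF, are given for the same motifs. The Tgfb1 window lies at chr7:25686752-25687051 on the plus strand and the Tgfb2 window at chr1:186705940-186706239 on the minus strand of GRCm38.p6.
Tgfb1 promoter: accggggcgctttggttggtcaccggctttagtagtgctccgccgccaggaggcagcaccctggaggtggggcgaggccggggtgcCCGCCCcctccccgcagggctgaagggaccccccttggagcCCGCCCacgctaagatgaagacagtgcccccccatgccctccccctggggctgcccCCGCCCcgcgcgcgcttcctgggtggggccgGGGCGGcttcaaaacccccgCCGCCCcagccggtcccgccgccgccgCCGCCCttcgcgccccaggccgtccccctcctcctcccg
Tgfb2 promoter: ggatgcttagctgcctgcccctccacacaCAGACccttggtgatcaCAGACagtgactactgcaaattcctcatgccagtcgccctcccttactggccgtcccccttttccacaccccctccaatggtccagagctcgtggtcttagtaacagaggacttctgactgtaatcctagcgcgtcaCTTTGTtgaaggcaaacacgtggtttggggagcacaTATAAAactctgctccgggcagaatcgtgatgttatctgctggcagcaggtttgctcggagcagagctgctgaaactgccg
The Tgfb1 window holds 77% G and C, above 97.6% of all windows, with 6 GGGCGG and none of the other motifs. The Tgfb2 window holds 54.3%, above 54.5% of them, with 1 TATAAA that begins 31 bases before the start, 1 CTTTGT that begins 67 bases before it and 2 CAGAC.

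**Figure D1:**
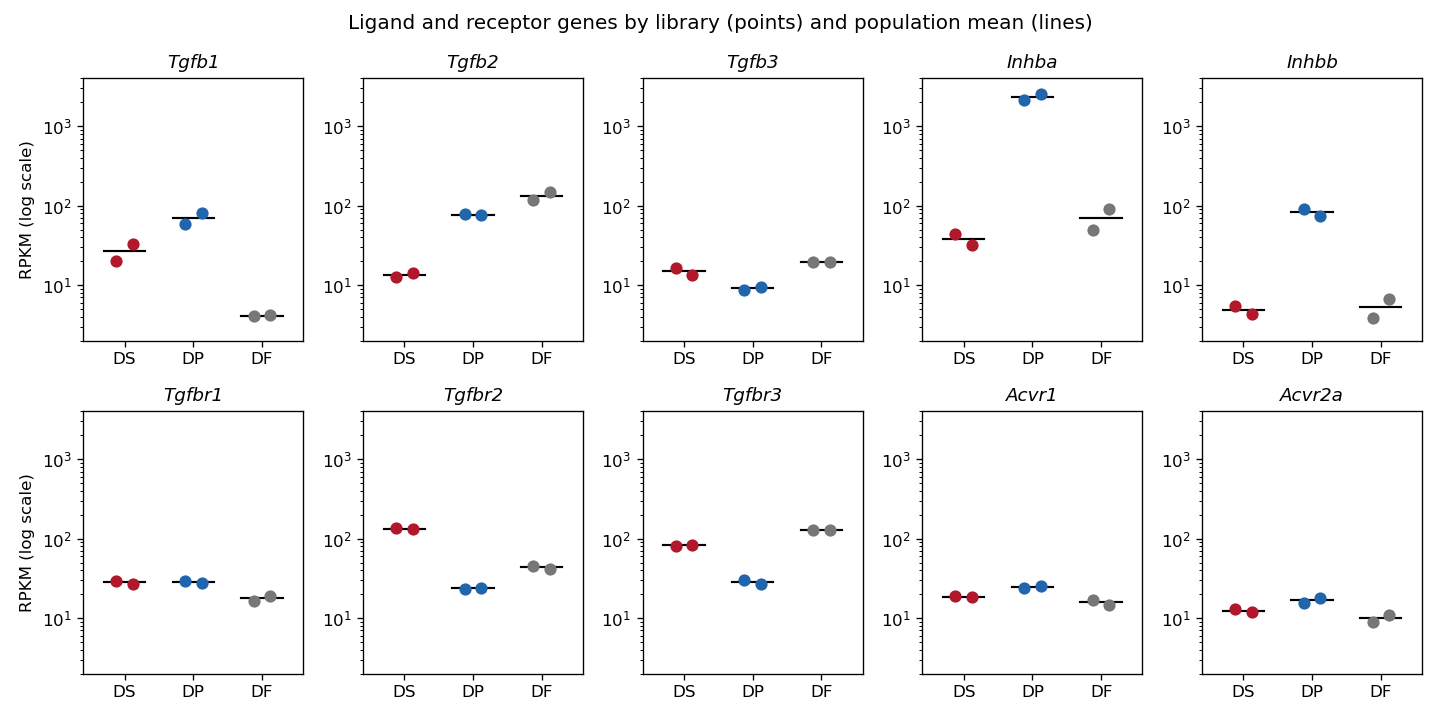
RPKM of the 10 ligand and receptor genes on a log axis, with a point for each library and a line at the mean of DS, DP and DF. The DP points of Inhba, at 2119 and 2517 RPKM, lie above every other point, and the activin receptor genes Acvr1 and Acvr2a stay within a narrow band.

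Of the TGF-beta receptor genes, Tgfbr2 was highest in DS, Tgfbr3 was highest in DF and Tgfbr1 varied least. Tgfbr2 (gene ID 21813), the type II receptor that binds ligand first, had 137 and 131 RPKM in DS, 23.1 and 24.1 RPKM in DP, and 45.5 and 41.5 RPKM in DF. The 3 populations were apart by far more than the replicates of any of them. Tgfbr2 was higher in DS than in DP, at 2.46 on the log2 scale (SE 0.13, adjusted p = 0.000156) and higher in DS than in DF by 1.60 (SE 0.13, adjusted p = 0.000664). Under median-ratio scaling the difference from DP was 2.65 and that from DF was 0.97 (adjusted p = 0.0132), just under the minimum. In DP minus DF it was -0.85 (95% interval -1.17 to -0.54, adjusted p = 0.00378), which was called a decrease with median-ratio scaling (-1.68, adjusted p = 0.00157) and with equal sums outside the 100 highest genes (-1.50).

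Tgfbr3 (gene ID 21814), which encodes betaglycan, had 80.7 and 83.5 RPKM in DS, 29.8 and 26.6 RPKM in DP, and 128 and 129 RPKM in DF. The replicates of each population were close, and none overlapped another population. Tgfbr3 was lower in DP than in DF, at -2.15 (SE 0.13, adjusted p = 0.000259), or -2.98 with median-ratio scaling, and was higher in DS than in DP by 1.51 (SE 0.13, adjusted p = 0.000679), or 1.71. The DS minus DF difference of -0.64 (95% interval -0.95 to -0.33, adjusted p = 0.0116) was under the minimum, and with median-ratio scaling it was -1.27 (adjusted p = 0.00261). Tgfbr1 (gene ID 21812), the type I kinase, had 29.4 and 26.7 RPKM in DS, 29.1 and 27.3 RPKM in DP, and 16.4 and 19.0 RPKM in DF. DS and DP overlapped for Tgfbr1, with a log2 difference of -0.0079 (95% interval -0.39 to 0.38, adjusted p = 0.977). The DS minus DF difference of 0.64 and the DP minus DF difference of 0.65 were both under the minimum (adjusted p = 0.0218 and 0.0161), and with median-ratio scaling they were 0.026 and -0.17 (adjusted p = 0.914 and 0.402).

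Neither activin-class receptor gene was called in any comparison. Acvr1 (gene ID 11477) had 18.7 and 18.2 RPKM in DS, 24.1 and 25.7 RPKM in DP, and 16.9 and 14.7 RPKM in DF. Acvr2a (gene ID 11480), the type II receptor, had 12.9 and 11.9 RPKM in DS, 15.6 and 17.9 RPKM in DP, and 8.96 and 10.9 RPKM in DF. Both were highest in DP and lowest in DF without overlap. The largest of their differences, DP minus DF, was 0.63 for Acvr1 (95% interval 0.24 to 1.01, adjusted p = 0.0175) and 0.70 for Acvr2a (95% interval 0.24 to 1.16, adjusted p = 0.0215), close to the 0.71 median of all tested genes. With median-ratio scaling these differences were -0.18 and -0.088 (adjusted p = 0.535 and 0.711). The upper ends of the DP minus DF intervals allow a rise just past the minimum difference.

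**Figure D2:**
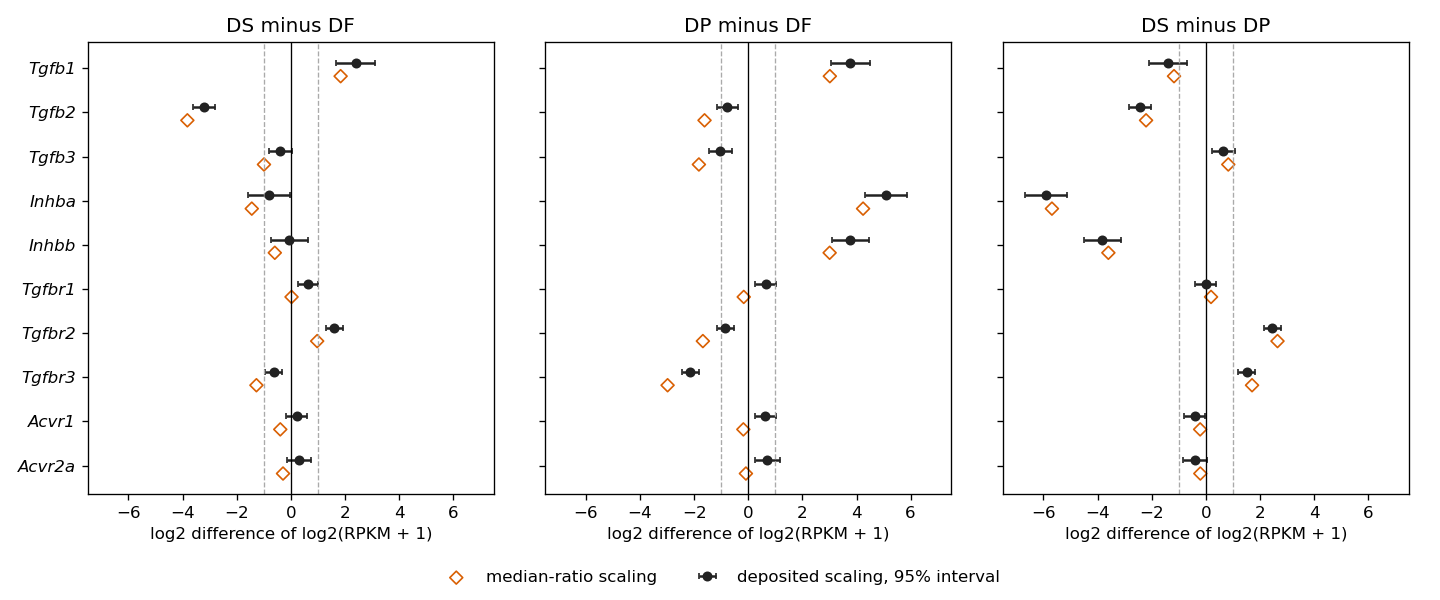
Log2 differences of the 10 genes in the 3 comparisons, with filled points and 95% intervals from limma for the deposited scaling, open diamonds for median-ratio scaling, and dashed lines at the minimum difference of 1. Inhba stands furthest from 0 in DP minus DF (5.08), with Inhbb and Tgfb1 next and level (3.78 and 3.77). Inhba and Inhbb stand furthest from 0 in DS minus DP (-5.90 and -3.83), and the diamonds of DP minus DF all lie left of the points.

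The calls of the 10 genes were counted beside those of all tested genes. In DS minus DF, 2 were higher (Tgfb1 and Tgfbr2) and 1 was lower (Tgfb2), where 20.6% of all tested genes were called higher and 5.95% lower. With median-ratio scaling 1 was higher (Tgfb1) and 3 were lower (Tgfb2, Inhba and Tgfbr3), against 8.01% and 9.93% of all genes. In DP minus DF, 3 were higher (Tgfb1, Inhba and Inhbb) and 2 lower (Tgfb3 and Tgfbr3), where 31.5% of all genes were higher and 6.87% lower. Median-ratio scaling gave the same 3 higher and 4 lower, with Tgfb2 and Tgfbr2 added, against 9.33% and 13% of all genes. In DS minus DP, 2 were higher (Tgfbr2 and Tgfbr3) and 4 lower (Tgfb1, Tgfb2, Inhba and Inhbb), where 9.42% of all genes were higher and 12.8% lower, and median-ratio scaling gave these 6 genes again, against 11.5% and 9.81%. The median log2 difference of the 10 genes was 0.081 in DS minus DF, 0.64 in DP minus DF and -0.41 in DS minus DP, beside 0.53, 0.71 and -0.17 for all tested genes. Each pair of these comparisons shares a population, so they are not independent of one another. An exact permutation of 2 libraries against 2 cannot go below a two-sided p of 0.333, so the adjusted p-values draw on a variance estimate pooled over genes by limma.

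The makeup of each set was also compared within a library, where the scaling between libraries cancels. Of the summed RPKM of the TGF-beta ligands, Tgfb1 held 40.8% and 54.5% in DS, 40.7% and 48.6% in DP, and 2.87% and 2.44% in DF. Tgfb2 held 25.9% and 23.4% in DS, 53.4% and 45.6% in DP, and 83.3% and 86.1% in DF, and Tgfb3 held 33.3% and 22.1% in DS, 5.90% and 5.81% in DP, and 13.9% and 11.5% in DF. DF transcripts were thus mostly Tgfb2, DP transcripts were Tgfb1 and Tgfb2 in similar amounts, and the Tgfb2 share was lowest in both DS libraries. The sum itself was 48.9 and 60.8 RPKM in DS, 145 and 165 RPKM in DP, and 141 and 171 RPKM in DF.

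Among the TGF-beta receptors, Tgfbr2 held 55.4% and 54.4% of the summed RPKM in DS, 28.2% and 31.0% in DP, and 24.0% and 21.9% in DF. Tgfbr3 held 32.7% and 34.6% in DS, 36.4% and 34.1% in DP, and 67.3% and 68.1% in DF. Tgfbr1 held 11.9% and 11.1% in DS, 35.5% and 35.0% in DP, and 8.67% and 10.01% in DF. The ratio of the type II to the type I receptor gene, Tgfbr2 to Tgfbr1, was 4.66 and 4.92 in DS, 0.794 and 0.885 in DP, and 2.77 and 2.19 in DF, with no overlap between populations. The ratio of the co-receptor gene Tgfbr3 to Tgfbr2 was 0.589 and 0.636 in DS, 1.29 and 1.10 in DP, and 2.80 and 3.11 in DF. With 2 libraries per population these shares and ratios are a description, with no test.

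**Figure D3:**
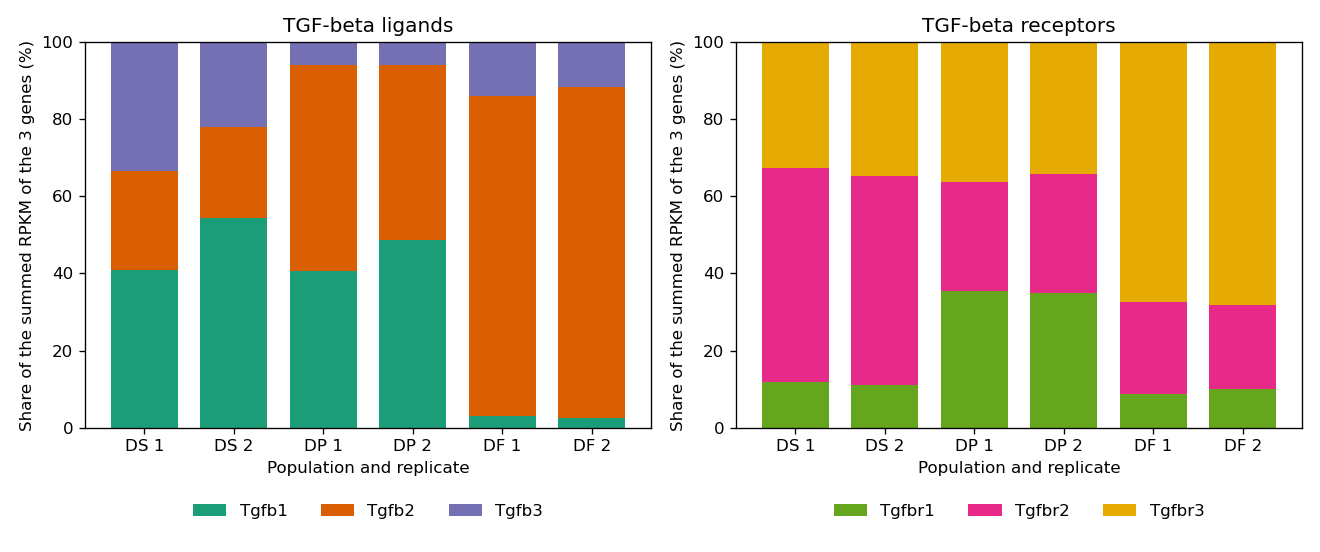
Share of each gene in the summed RPKM of the 3 TGF-beta ligand genes (left) and the 3 TGF-beta receptor genes (right), with a bar for each library. Tgfb2 fills 83.3% and 86.1% of the DF ligand bars and Tgfbr2 fills 55.4% and 54.4% of the DS receptor bars.

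For all 5 ligand and subunit genes together, Inhba held 44.8% and 33.1% of the sum in DS, 90.0% and 91.3% in DP, and 25.6% and 33.7% in DF. Inhba exceeded Inhbb in every library, by 8.09 and 7.45 times in DS, 23.2 and 33.8 times in DP, and 13.0 and 13.6 times in DF. Follistatin, the product of Fst, binds and blocks activin, and Fst, singled out after its values were seen, did not differ by the call rule, at 4.41 and 5.02 RPKM in DS, 7.61 and 4.23 RPKM in DP, and 5.81 and 7.40 RPKM in DF. The DP minus DF log2 difference of Fst was -0.17 (adjusted p = 0.636). Inhba therefore exceeded Fst by 278 and 595 times in DP, against 8.57 and 12.2 times in DF. Fstl3, which encodes another activin-binding protein and was also singled out, was higher in DP than in DF, at 105 and 125 RPKM against 33.4 and 34.55 RPKM (log2 difference 1.73, adjusted p = 0.000608), and the call ended with median-ratio scaling (0.89).

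The other genes of the pathway were counted by role. Of all tested genes, as above, 20.6% were higher and 5.95% lower in DS minus DF, 31.5% and 6.87% in DP minus DF, and 9.42% and 12.8% in DS minus DP, and their median log2 differences were 0.53, 0.71 and -0.17. With median-ratio scaling the shares were 8.01% and 9.93% in DS minus DF, 9.33% and 13% in DP minus DF, and 11.5% and 9.81% in DS minus DP. Counts under that scaling stand beside these latter shares. With lists of 7 to 16 genes, single genes decide how a count stands beside the shares of either scaling, and nothing particular to a list is read from it. Among the other receptors and subunits of the family, of 9 tested genes, 2 were higher and 0 lower in DS minus DF, 4 were higher and 1 lower in DP minus DF, and 0 were higher and 2 lower in DS minus DP. With median-ratio scaling the counts were 0 higher and 1 lower in DS minus DF, 1 higher and 1 lower in DP minus DF, and 0 higher and 1 lower in DS minus DP. Their median log2 difference was 0.60 in DS minus DF, 0.79 in DP minus DF and 0.27 in DS minus DP. Acvr2b, the second activin type II receptor, had 4.45 and 4.34 RPKM in DS, 20.3 and 12.1 RPKM in DP, and 2.18 and 3.92 RPKM in DF, and was higher in DP than in DF by 2.08 (SE 0.33, adjusted p = 0.00454), or 1.37 with median-ratio scaling. Acvr1b, the main activin type I receptor, was chosen after its values were seen and was higher in DP than in DF by 1.3002 (adjusted p = 0.00494), a call that ended with both other scalings (0.61 with median-ratio factors). Eng, which encodes the co-receptor endoglin, was higher in DP than in DF by 1.68 (adjusted p = 0.00522), and Acvrl1, an endothelial type I receptor, was lower by -1.58 (adjusted p = 0.0163). With median-ratio scaling these were 0.86 and -2.36. The Eng call ended there and the Acvrl1 call with no filter and without DP replicate 1, DF replicate 1 or DF replicate 2, with an adjusted p of up to 0.0705. In DS minus DF the genes called were Tgfbrap1 (1.39, adjusted p = 0.00317) and Bmpr2 (1.32, adjusted p = 0.00127), and neither call held with median-ratio scaling (0.79 and 0.70).

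Of 14 tested genes that store and activate latent TGF-beta, 3 were higher and 4 lower in DS minus DF, 2 higher and 3 lower in DP minus DF, and 4 higher and 3 lower in DS minus DP. With median-ratio scaling the counts were 1 higher and 4 lower in DS minus DF, 2 higher and 5 lower in DP minus DF, and 5 higher and 3 lower in DS minus DP. Their median log2 difference was -0.0069 in DS minus DF, 0.24 in DP minus DF and -0.024 in DS minus DP. Thbs1, which encodes thrombospondin 1, an activator of latent TGF-beta, had 193 and 253 RPKM in DS, 31.9 and 26.0 RPKM in DP, and 22.6 and 26.9 RPKM in DF. It was higher in DS than in DF by 3.11 (SE 0.20, adjusted p = 0.000344) and than in DP by 2.90 (SE 0.20, adjusted p = 0.000357), or 2.49 and 3.09 with median-ratio scaling. Lrrc32, which encodes GARP, a cell surface anchor of latent TGF-beta, had 9.82 and 9.44 RPKM in DS, 48.2 and 46.1 RPKM in DP, and 6.03 and 4.81 RPKM in DF, a rise of 2.91 in DP minus DF (SE 0.17, adjusted p = 0.000274), or 2.13 with median-ratio scaling. Itgb8, the beta chain of an integrin that activates TGF-beta, reached 6.23 and 4.25 RPKM in DP and at most 0.36 RPKM in a library of the other populations (DS minus DP -2.58, adjusted p = 0.000988). Ltbp2, which encodes a matrix protein of the latent TGF-beta binding family, and Pcsk6, which encodes a proprotein convertase, were highest in DF. Ltbp2 (-3.58, adjusted p = 0.00142) and Pcsk6 (-2.49, adjusted p = 0.00541) were lower in DS than in DF, and Fbn1, which encodes fibrillin 1, the microfibril protein to which latent complexes attach, was lower in DP than in DF by -3.23 (adjusted p = 0.00011). With median-ratio scaling these were -4.20, -3.07 and -4.07.

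Inhibitors outside the cell and at its surface had 1 gene higher and 2 lower of 9 in DS minus DF, 3 higher and 3 lower in DP minus DF, and 3 higher and 2 lower in DS minus DP. With median-ratio scaling the counts were 0 higher and 3 lower in DS minus DF, 1 higher and 4 lower in DP minus DF, and 3 higher and 2 lower in DS minus DP. Their median log2 difference was -0.33 in DS minus DF, -0.17 in DP minus DF and -0.23 in DS minus DP. Dcn, whose product decorin binds TGF-beta, had 1172 and 1354 RPKM in DS, 6.04 and 9.40 RPKM in DP, and 3579 and 3730 RPKM in DF. Its log2 difference was -8.74 in DP minus DF (SE 0.21, adjusted p = 4.45e-05) and 7.20 in DS minus DP (SE 0.21, adjusted p = 3.79e-05), or -9.54 and 7.37 with median-ratio scaling. Fmod, another proteoglycan, was also lower in DP than in DF (-2.83, adjusted p = 0.00246), while Bambi, which encodes a receptor decoy without kinase activity, was higher in DP, at 16.9 and 21.1 RPKM against 1.20 and 0.921 RPKM in DF (3.27, SE 0.24, adjusted p = 0.000443). With median-ratio scaling Fmod was at -3.40 and Bambi at 2.65. In DS minus DF, Dcn was lower (-1.54, adjusted p = 0.00351), while Tgfbr3l (1.01) and Chrd (-1.03) were at the edge of the minimum difference and each lost its call in at least 1 library left out.

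Inside the cell, of 7 Smad transducers, 1 was higher in DS minus DF, 3 in DP minus DF and 0 in DS minus DP, with 0 lower in each. Their median log2 difference was 0.66 in DS minus DF, 0.69 in DP minus DF and -0.19 in DS minus DP. Smad9, which is not among the Smads named above for TGF-beta and activin, was higher in DS than in DF by 1.72 (adjusted p = 0.00212). Smad2 (1.57), Smad4 (1.278) and Smad9 (1.15) were higher in DP than in DF in the deposited scaling. None of these 3 was called in DP minus DF with median-ratio scaling, where they were at 0.76, 0.45 and 0.77. Of 10 inhibitors, 6 were higher and 0 lower in DS minus DF, or 3 and 0 with median-ratio scaling, and 8 were higher and 0 lower in DP minus DF, or 2 and 0. The inhibitors' median log2 difference was 1.19 in DS minus DF and 1.40 in DP minus DF, beside 0.53 and 0.71 for all tested genes. Pmepa1, a TGF-beta-induced inhibitor of Smad signalling, had 259 and 257 RPKM in DS, 78.2 and 80.4 RPKM in DP, and 32.3 and 38.3 RPKM in DF, and was higher in DS than in DF by 2.84 (SE 0.13, adjusted p = 0.000141) and than in DP by 1.69 (SE 0.13, adjusted p = 0.000566), or 2.21 and 1.896 with median-ratio scaling. Skil (2.17, adjusted p = 0.000767) and Smurf1 (2.16, adjusted p = 0.000905) were also higher in DS than in DF, or 1.58 and 1.60 with median-ratio scaling. Smad7, the inhibitory Smad of the TGF-beta branch, had its highest values in DP instead, with 7.65 and 9.79 RPKM in DS, 28.2 and 32.8 RPKM in DP, and 3.64 and 3.54 RPKM in DF (DP minus DF 2.78, SE 0.20, adjusted p = 0.000404, and DS minus DP -1.70, adjusted p = 0.00218). Tgif1, a nuclear corepressor, was likewise higher in DP than in DF (2.52, adjusted p = 0.000998). The DP minus DF difference with median-ratio scaling was 2.03 for Smad7 and 1.70 for Tgif1.

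Of 16 tested genes known to respond to TGF-beta in fibroblasts, 6 were higher and 6 lower in DS minus DF, 5 higher and 6 lower in DP minus DF, and 7 higher and 3 lower in DS minus DP. With median-ratio scaling the counts were 5 higher and 7 lower in DS minus DF, 3 higher and 6 lower in DP minus DF, and 7 higher and 3 lower in DS minus DP. Their median log2 difference was 0.16 in DS minus DF, 0.38 in DP minus DF and 0.46 in DS minus DP. Of the genes named next, Acta2, Tagln, Col1a1 and Col1a2 are also on the marker lists of the sorted cells. Acta2 (8.33) and Tagln (6.16), contractile genes, were higher in DS than in DF, and Col1a1, a collagen gene, was lower (-5.96). Col1a2 (-7.49), Col1a1 (-7.35) and Fn1 (-4.79), all matrix genes, were lower in DP than in DF. Ccn2 and Ldlrad4 are on none of the marker lists and were singled out after their values were seen. They were higher in DS than in DF by 2.41 (adjusted p = 0.00127) and 2.48 (adjusted p = 0.000297), or 1.78 and 1.89 with median-ratio scaling. Genes outside the marker lists also went the other way. Of the 6 target genes lower in DS than in DF, all but Col1a1 and Col1a2 are on none of these lists. Over all 65 tested pathway genes outside the 10, 19 were higher and 12 lower in DS minus DF, 25 higher and 13 lower in DP minus DF, and 16 higher and 12 lower in DS minus DP. With median-ratio scaling the counts were 10 higher and 15 lower in DS minus DF, 9 higher and 16 lower in DP minus DF, and 17 higher and 10 lower in DS minus DP. Their median log2 difference was 0.60 in DS minus DF, 0.61 in DP minus DF and -0.0057 in DS minus DP.

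**Figure D4:**
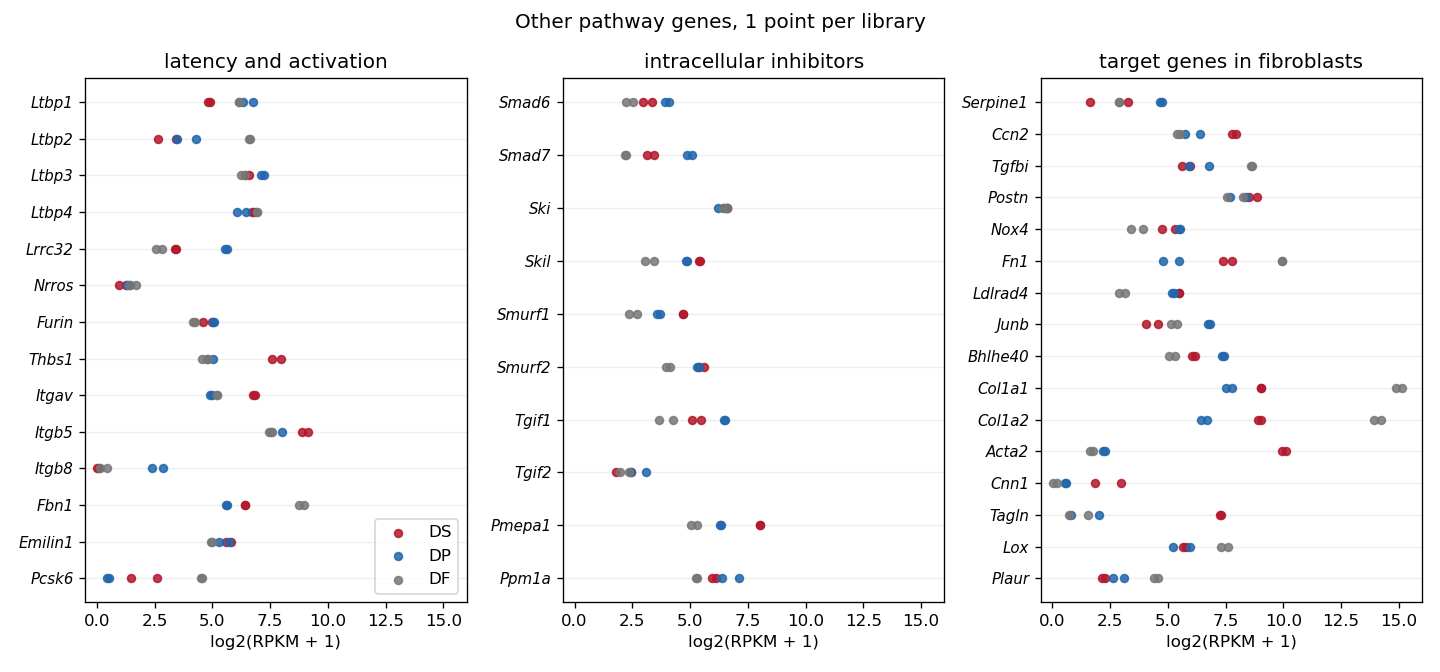
Levels of the tested genes for latency and activation, intracellular inhibitors and target genes as log2(RPKM + 1), with a point for each library of DS (red), DP (blue) and DF (grey). Thbs1 and Pmepa1 are highest in DS, Lrrc32 and Smad7 in DP, and Fbn1 and the collagen genes in DF.

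Genes whose levels followed those of the members most closely were sought for Inhba, Inhbb and Tgfb1, the 3 members with the largest range between population means. Likeness was the Euclidean distance between centred log2(RPKM + 1) values over the 6 libraries, among 9485 genes with at least 10 RPKM in their highest population. Nearest to Inhba was Rgs2, which encodes a regulator of G protein signalling, at a distance of 0.472, with 14.3 and 10.2 RPKM in DS, 991 and 1108 RPKM in DP, and 16.3 and 35.9 RPKM in DF. Dio2 (0.525), Trpc4 (0.586), Cemip (0.599) and Tmem176a (0.618) followed. Of these, Dio2, Trpc4 and Cemip did not pass 0.086 RPKM in DS, a level at which log2(RPKM + 1) understates changes. Nearest to Inhbb were Ndrg2 (0.318), Pipox (0.338), Grid1 (0.373), Pkn3 (0.377) and St6galnac5 (0.458). Pipox, Grid1 and Pkn3 were likewise low in DS, with at most 1.15 RPKM. Nearest to Tgfb1 were Spry1, a feedback inhibitor of FGF signalling (0.479), Ptch1, the hedgehog receptor (0.520), Gng8 (0.587), Vipr2 (0.595) and Hip1 (0.601). Ptch1 had 23.6 and 32.4 RPKM in DS, 56.1 and 74.3 RPKM in DP, and 4.37 and 6.31 RPKM in DF, the same order as Tgfb1. These distances come from 6 libraries of 3 populations whose overall medians differ, and no test was made of them.

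Markers of other cell types were detected in the libraries of all 3 populations, some of them above the level of the ligand and receptor genes. Tgfb1 is also expressed by leukocytes and endothelial cells. The summed RPKM of 8 leukocyte markers was 14.0 and 7.55 in DS, 9.62 and 15.0 in DP, and 28.8 and 42.5 in DF, where Tgfb1 was lowest, with 4 of 6 tested markers lower in DS than in DF and 4 lower and 1 higher in DP than in DF. Ptprc, which marks all leukocytes, did not pass 1.41 RPKM in any library. The sum of 6 endothelial markers was 11.7 and 2.66 in DS, 32.3 and 23.1 in DP, and 6.50 and 4.53 in DF, and 2 of 5 tested were higher in DP than in DF, with Flt1 alone at 21.6 and 18.7 RPKM in DP and Pecam1 at 3.47 and 1.43 RPKM. Pericyte and vascular smooth muscle markers summed to 61.4 and 57.2 RPKM in DS, 153 and 143 RPKM in DP, and 16.6 and 19.6 RPKM in DF, of which Cspg4 made up 42.7 and 49.996 RPKM in DS, 121 and 124 RPKM in DP, and 1.71 and 3.49 RPKM in DF. Keratinocyte markers summed to 43.8 and 141 RPKM in DS, 87.1 and 84.5 RPKM in DP, and 45.1 and 46.3 RPKM in DF, with Krt10 at 103 RPKM in DS replicate 2. The sum of melanocyte markers was highest in DF (2.89 and 4.86 RPKM in DS, 8.29 and 5.32 in DP, and 15.7 and 30.03 in DF). Of these markers, Tyr was instead highest in DP, at 5.66 and 3.83 RPKM against 1.39 and 2.74 RPKM in DF. The Schwann cell and adipocyte sums did not pass 24.2 RPKM in any library. None of the markers on these 7 lists was at 0 in every library, and their part in the levels of the ligand and receptor genes was not tested. Some of the 10 genes overlap a gene on the other strand in the annotation. Tgfb2 and Acvr1 overlap only such genes without deposited values. Tgfbr3 overlaps Gm8145 on the other strand and Gm43422, Gm43423 and Gm42900 on its own strand, all without deposited values. Among other-strand genes with values, Tgfb3 overlaps Ttll5, Acvr2a overlaps Orc4 and Inhba overlaps B230303A05Rik. Ttll5, Orc4 and B230303A05Rik reached at most 37.2, 85.04 and 15.6 RPKM. No label says whether reads were counted by strand, so reads of overlapping genes may not be told apart. For genes on the same strand, counting by strand would not separate them.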

How the data were processed

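Transcripts were measured by RNA sequencing in 6 libraries, 2 for each of 3 sorted populations. Per the labels' protocols, RNA of the sorted cells was amplified with a NuGEN Ovation kit before library construction, and amplification can distort the levels of single genes. The deposited values are RPKM per gene and library, made by the authors without pooling of replicates. Per the submitters' processing notes, GRCm39, DESeq2 1.28.1 and Salmon 1.9.0 were used, in no stated role. Annotation, filters and total reads are not stated there, so no counting intervals could be made. Relative depth was read from ratios to DF replicate 2 that recurred exactly over genes. The ratio taken had the highest weighted number of genes at it and at its small whole-number multiples and fractions. It was shared by 22 to 41 genes.

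The 10 genes, the pathway and marker lists and the naming rule were chosen with earlier results of these data known. Values were analysed as log2(RPKM + 1) in limma 3.58.1 under R 4.3.3, keeping genes that reached 1 RPKM in 2 or more libraries, with a mean per population, eBayes with a trend and Benjamini-Hochberg adjustment over all 14664 genes of each comparison, two-sided. Calls needed an adjusted p under 0.05 and a log2 difference of at least 1. In each pathway list and comparison at most 3 called genes with the largest difference were named, and any gene outside this rule is marked in the text as singled out. Of the listed genes, Cripto was not matched to a symbol of the table, and 5 others were matched and did not pass the filter. The procedure was tested on simulated data. Alternatives were 2 other scalings, no filter, a stricter filter (5 RPKM), a smaller pseudocount (0.1), eBayes without a trend, fits of only 2 populations, a replicate block, no minimum difference and leaving out each library. Where the labels call replicates biological, nothing more is given on their source.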

Additional observations from a re-analysis of the deposited data

How the results depend on the processing

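Most results held under the alternatives, but many of these leave a log2 difference, and so its direction, unchanged by design. They are the changed filters, eBayes without a trend, fits of only 2 populations, the replicate block and no minimum difference. Leaving out a library of the population not compared is another. Tgfb1 in DS minus DF was 2.39 in each. Median-ratio factors ended the Tgfbr2 call and added Inhba and Tgfbr3 in DS minus DF. They added Tgfb2 and Tgfbr2 in DP minus DF and changed no call in DS minus DP. Of the recomputed differences of single ligand and receptor genes, 414 kept their direction and their side of the call rule, 17 became calls, 5 lost a call and 14 changed sign. Calls of Inhba, Inhbb, Tgfb2, Tgfbr2 and Tgfbr3 in DS minus DP, of Inhba, Inhbb, Tgfb1 and Tgfbr3 in DP minus DF, and of Tgfb1 and Tgfb2 in DS minus DF held under every alternative run.

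With median-ratio factors 1174 genes were higher and 1456 lower in DS minus DF, against 3027 and 872 as deposited, and 1368 higher and 1911 lower in DP minus DF, against 4613 and 1007. With equal sums outside the 100 highest genes the counts were 1207 and 1399 in DS minus DF and 1719 and 1660 in DP minus DF. Of the 10 genes, median-ratio factors left 1 higher and 3 lower in DS minus DF and 4 lower in DP minus DF, and equal sums left 3 lower in DS minus DF and 4 lower in DP minus DF. With no minimum difference 5405 genes were higher in DS minus DF and 7273 in DP minus DF, and of the 10 genes 2 were lower in DS minus DF, 6 higher in DP minus DF and 4 lower in DP minus DF. With 1 library left out, genes lower in DS minus DP ranged from 1113 (without DP replicate 1; 1172 without DP replicate 2) to 1888, and of the 10 genes those lower in DS minus DF ranged from 1 to 2 (2 without DF replicate 1) and those lower in DP minus DF from 1 to 2 (1 without DP replicate 1).

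Differences that changed sign were all under the minimum difference in the deposited scaling. The largest was Acvr2a in DP minus DF, at 0.70 (adjusted p = 0.0215 in limma). With median-ratio factors Acvr1 was at -0.39 and Acvr2a at -0.29 in DS minus DF, Tgfbr1 at -0.17, Acvr1 at -0.18 and Acvr2a at -0.088 in DP minus DF, and Tgfbr1 at 0.19 in DS minus DP. With equal sums outside the 100 highest genes Acvr1 was at -0.36 and Acvr2a at -0.26 in DS minus DF, Acvr1 at -0.0054 in DP minus DF and Tgfbr1 at 0.046 in DS minus DP. With 1 library left out, Inhbb in DS minus DF ranged from -0.38 to 0.27, positive without DS replicate 2 (0.085) and DF replicate 2, and Tgfbr1 in DS minus DP ranged from -0.075 to 0.060, positive without DS replicate 2 and DP replicate 1 (0.037). The cause of these changes was not tested.

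Same-numbered replicates did not deviate together, with correlations of -0.03 between DS and DP, -0.07 between DS and DF and -0.05 between DP and DF, so the numbers were not taken to pair libraries. With the replicate block 2978 genes were higher and 860 lower in DS minus DF, 4583 and 1008 in DP minus DF and 1361 and 1802 in DS minus DP, and no call of the 10 genes changed. Depth limits low genes most in DS, where 1 read is worth 2.40 and 2.01 times its value in DF replicate 2.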

Other observations

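Ratios between members within a library add values that belong to no comparison above. The ratio of Acvr1 to Acvr2a was 1.45 and 1.53 in DS, 1.54 and 1.44 in DP, and 1.89 and 1.34 in DF. The ratio of Inhba to its type II receptor gene Acvr2a was 3.41 and 2.70 in DS, 136 and 141 in DP, and 5.57 and 8.25 in DF. Tgfb2 over Tgfb3 was 0.778 and 1.06 in DS, 9.07 and 7.85 in DP, and 6.00 and 7.49 in DF, so DS was the one population in which both ligand genes stood at about the same level.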
